A study of Homo sapiens with 12 samples.

Results

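A set of 10 genes of protein folding in the endoplasmic reticulum (ER) and of the response to unfolded protein there were followed through RNA-seq libraries of prostate cancer cells treated with pentamidine. They were chosen by name from the 32077 genes of the deposited count table, by what their proteins do, but with earlier results of these data known. All 10 passed the filter on low counts. HSPA5, HSP90B1, CALR, PDIA4, SDF2L1 and DNAJB9 encode chaperones and their helpers inside the ER, HERPUD1 encodes a membrane protein of ER-associated degradation, and XBP1, ATF6 and ERN1 encode a transcription factor and sensors of the unfolded protein response. The libraries came from PC3 and DU145, androgen-independent cell lines long established from human prostate cancer. Each line, labelled wild type, was cultured for 48 hours with 2.5 μM pentamidine, an antiprotozoal diamidine, or with sterile distilled water as vehicle, and each of these 4 groups held 3 samples (12 together). Every group is thus drawn from 1 cell line, at 1 dose and 1 time.

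Proteins that enter the secretory pathway fold in the ER lumen with the help of chaperones such as the HSP70 protein BiP (HSPA5), the HSP90 protein GRP94 (HSP90B1) and the lectin calreticulin (CALR), while disulfide isomerases such as PDIA4 form and exchange disulfide bonds. When unfolded protein accumulates, 3 membrane sensors respond: IRE1 (ERN1) splices the mRNA of XBP1, ATF6 is cut to release a transcription factor, and PERK (EIF2AK3) phosphorylates the translation factor eIF2-alpha, which favours translation of ATF4. The classical targets of ATF6 and spliced XBP1 include the chaperones above, whereas ATF4 and its partner CHOP (DDIT3) turn on genes of amino acid supply and stress. ATF4 can also be raised by other eIF2-alpha kinases that do not sense the ER, so the chaperone and ATF4 genes were set side by side.

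Total counts ranged from 13514195 to 15131436 per sample, and no library stood apart in depth. The PC3 vehicle libraries differed more from each other than those of the other groups, as the chi-square between a pair of replicates averaged 3.41 to 6.70 over genes there and 1.67 to 2.95 elsewhere. No call of a member in PC3 cells was lost when any 1 of the PC3 libraries was left out. Of the markers of epithelial cells in the table, KRT8 and KRT18 were detected in both lines, and EPCAM and KRT19 had at most 3 counts in every library. CDH1 had at most 3 counts in every PC3 library. The summed level of the 5 epithelial markers was 166.5 to 193 CPM (counts scaled to the library total) in PC3 vehicle samples and 196 to 226 CPM after pentamidine, against 3435 to 3584 CPM and 2528 to 2582 CPM in DU145 cells. Nearly all of each sum came from KRT8 and KRT18. In DU145 cells CDH1 averaged 0.231 CPM with vehicle and 0.395 CPM with pentamidine. KLK2 and KLK3, markers of luminal prostate cells, had at most 3 counts in every library, as had the leukocyte markers PTPRC and LYZ. The summed fibroblast and endothelial list stayed at or below 3.41 CPM. The part of the lower epithelial sum of treated DU145 cells in the results was not tested. These are bulk samples, so a lower level in each cell and fewer cells with a high level cannot be told apart.

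Sequences around the transcription start were read for the members because ER chaperone genes are textbook carriers of the ER stress response element (ERSE), the letters CCAAT and CCACG with 9 bases between them. Promoters of 300 bases (250 before the start and 50 after it, RefSeq, GRCh38.p14) were present for all 10 members, 12 promoters in all. On either strand, ERSE was found in the promoters of 4 members and in 0.0769% of 35116 promoters of all genes. The 4 members were HSPA5 (chr9:125241294-125241593, minus strand), XBP1 (chr22:28800520-28800819, minus strand), HSP90B1 (chr12:103930160-103930459, plus strand) and CALR (chr19:12938359-12938658, plus strand). They are printed 5′ to 3′ along the gene, with both parts of each element in capitals, and on the reverse strand the element reads CGTGG, 9 bases, ATTGG.
HSPA5: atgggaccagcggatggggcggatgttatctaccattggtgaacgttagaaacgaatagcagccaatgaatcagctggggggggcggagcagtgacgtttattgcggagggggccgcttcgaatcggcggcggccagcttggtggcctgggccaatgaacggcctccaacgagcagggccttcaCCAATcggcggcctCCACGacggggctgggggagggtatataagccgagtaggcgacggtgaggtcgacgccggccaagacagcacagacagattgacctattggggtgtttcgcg
XBP1: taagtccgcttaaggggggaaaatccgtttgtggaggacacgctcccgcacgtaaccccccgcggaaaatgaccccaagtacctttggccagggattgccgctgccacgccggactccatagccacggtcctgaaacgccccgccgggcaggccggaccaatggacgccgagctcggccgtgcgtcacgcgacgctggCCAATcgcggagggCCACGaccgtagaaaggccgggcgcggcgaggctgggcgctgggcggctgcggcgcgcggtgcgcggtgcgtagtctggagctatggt
HSP90B1: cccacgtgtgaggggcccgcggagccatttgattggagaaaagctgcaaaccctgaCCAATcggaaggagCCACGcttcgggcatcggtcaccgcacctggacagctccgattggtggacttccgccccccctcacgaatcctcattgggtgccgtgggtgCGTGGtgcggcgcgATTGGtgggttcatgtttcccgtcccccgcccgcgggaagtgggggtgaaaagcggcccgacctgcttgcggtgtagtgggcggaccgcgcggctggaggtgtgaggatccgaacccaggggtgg
CALR: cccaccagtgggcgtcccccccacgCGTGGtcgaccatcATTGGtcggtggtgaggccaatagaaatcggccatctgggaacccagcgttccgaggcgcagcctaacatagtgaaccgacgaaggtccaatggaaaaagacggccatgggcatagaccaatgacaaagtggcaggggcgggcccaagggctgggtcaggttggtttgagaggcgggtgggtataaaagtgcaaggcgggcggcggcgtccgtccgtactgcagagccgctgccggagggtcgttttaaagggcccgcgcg

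The related element ERSE-II, the letters ATTGG and CCACG with 1 base between them, was searched in the same way because HERPUD1 is its textbook carrier. It was found in the promoters of 2 members, HERPUD1 (chr16:56931892-56932191, plus strand) and SDF2L1 (chr22:21642052-21642351, plus strand), and in 0.0541% of all promoters. In HERPUD1 a C/EBP-ATF response element, the kind of site that ATF4 and CHOP can bind (TGATGNAA, here on the reverse strand), is in capitals as well, save its free base. That motif was in no other member and in 3.62% of all promoters. The element TGACGTGG, bound by spliced XBP1, was in 0 of the 12 member promoters and in 0.729% of all promoters. None of the motifs was found in these windows of DNAJB9, ATF6, ERN1 or PDIA4. A match of letters is a description and does not show that a factor bound there.
HERPUD1: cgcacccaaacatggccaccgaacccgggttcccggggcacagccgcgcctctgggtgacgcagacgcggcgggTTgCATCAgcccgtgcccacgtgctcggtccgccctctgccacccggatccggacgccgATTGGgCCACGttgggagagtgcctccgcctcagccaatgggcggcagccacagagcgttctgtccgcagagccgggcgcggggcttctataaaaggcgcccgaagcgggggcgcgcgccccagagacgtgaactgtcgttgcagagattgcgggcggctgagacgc
SDF2L1: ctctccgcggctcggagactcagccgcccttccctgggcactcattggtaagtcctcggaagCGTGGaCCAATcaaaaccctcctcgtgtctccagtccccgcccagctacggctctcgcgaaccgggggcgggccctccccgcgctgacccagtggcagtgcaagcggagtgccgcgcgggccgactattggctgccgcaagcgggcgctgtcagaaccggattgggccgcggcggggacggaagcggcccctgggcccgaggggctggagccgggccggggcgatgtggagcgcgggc

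In PC3 cells the members did not move one way after pentamidine. XBP1, HERPUD1, ERN1, ATF6 and HSPA5 rose, SDF2L1, CALR, PDIA4 and HSP90B1 fell, and DNAJB9 was not called. In DU145 cells the same chaperones fell by less, HSPA5 fell with them, and of the other members only XBP1 and HERPUD1 were called higher. A member was called at an adjusted p below 0.05 by the quasi-likelihood test of edgeR, adjusted by Benjamini-Hochberg over all genes tested. In PC3 cells 5 of 10 members were called higher and 4 lower, where 21.7% of 13861 genes were called higher and 21.7% lower. With the study's added requirement of an absolute log2 fold change above 1, XBP1 was the 1 member higher and SDF2L1 the 1 member lower, against 3.44% and 1.31% of genes. The 3 treated and 3 vehicle samples did not overlap for any of the 10 members, as for 52.2% of genes. In DU145 cells 2 of 10 members were called higher and 5 lower, against 17.2% and 16.8% of 14313 genes. None passed the stricter threshold, which 1.37% of genes passed upwards and 0.657% downwards, and the groups did not overlap for 9 of 10 members and 44.0% of genes. The members' median log2 fold change was 0.24 (PC3) and -0.26 (DU145), where that of all genes tested was 0.0046 and 0.0085. The labels do not say that samples were separate cultures, so p-values measure the spread between these samples, which may be technical.

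**Figure D1:**
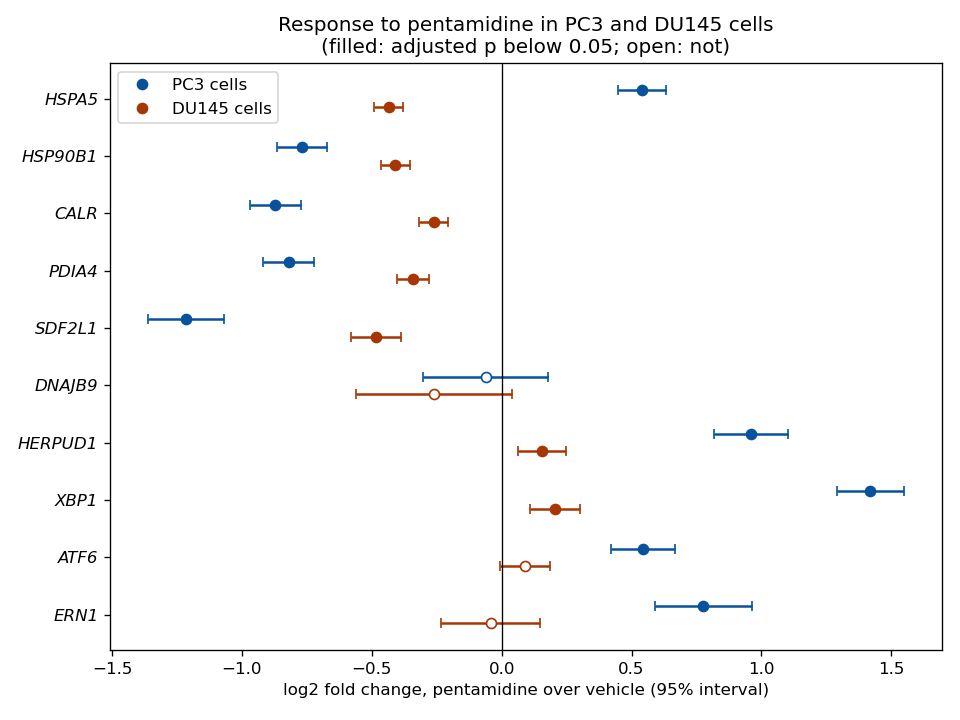
Log2 fold change of each member after pentamidine (horizontal axis, with 95% intervals) in PC3 and DU145 cells, 3 treated and 3 vehicle samples per line, with filled points for an adjusted p below 0.05. HSPA5 stands at 0.54 in PC3 cells and at -0.44 in DU145 cells, whereas HSP90B1, CALR, PDIA4 and SDF2L1 are left of zero in both lines.

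HSPA5 (BiP, ENSG00000044574) is the main HSP70 chaperone of the ER lumen and holds the 3 sensors inactive while it is bound to them. Its gene lies at chr9:125234853-125241330 on the minus strand of GRCh38. Levels are given as CPM scaled by TMM, a factor that evens out differences in library composition. In PC3 vehicle samples HSPA5 was at 1104, 1100.4 and 1109 TMM-scaled CPM, and after pentamidine at 1573, 1648 and 1582. In DU145 vehicle samples it was at 1016, 1027 and 1009, and after pentamidine at 747, 749.8 and 752. All treated PC3 samples were above, and all treated DU145 samples below, every vehicle sample of either line. The level rose 1.45-fold in PC3 cells (log2 fold change 0.54, SE 0.04, adjusted p = 3.3e-08), and it fell to 0.739 of the vehicle level in DU145 cells (log2 fold change -0.44, SE 0.03, adjusted p = 2e-18). The difference of the log2 fold changes was 0.98 (95% interval 0.88 to 1.07, adjusted p = 1.2e-14 for the interaction of treatment and line).

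HSP90B1 (GRP94, ENSG00000166598, chr12:103930107-103953645, plus strand) encodes the HSP90 chaperone of the ER, which folds a restricted set of clients such as integrins. It was at 909, 935 and 903 TMM-scaled CPM in PC3 vehicle samples and at 528, 548 and 529.8 after pentamidine. The DU145 samples were at 1481, 1543 and 1524 with vehicle and at 1126, 1148 and 1141 with pentamidine. The groups did not overlap in either line. HSP90B1 fell by 0.77 on the log2 scale in PC3 cells (SE 0.05, adjusted p = 4.7e-10) and by 0.41 in DU145 cells (SE 0.03, adjusted p = 1.5e-17), and the difference between the lines was -0.36 (interaction adjusted p = 2.9e-06). Its exons share 121 bases with C12orf73 on the opposite strand, a gene with at most 193 reads in a sample, and its copies HSP90B2P and HSP90B3P had at most 10 and 6 reads.

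CALR (ENSG00000179218, chr19:12938578-12944489, plus strand), the soluble lectin that holds newly made glycoproteins, was at 1089, 1066 and 1137 TMM-scaled CPM in PC3 vehicle samples. After pentamidine it was at 596, 611 and 587. In DU145 cells it went from 1434, 1430.2 and 1434 to 1188, 1198 and 1187. Every treated sample was below every vehicle sample of its line. The log2 fold change was -0.87 (SE 0.05, adjusted p = 1.3e-10) in PC3 cells and -0.26 (SE 0.03, adjusted p = 4.1e-11) in DU145 cells, a difference of -0.61 (adjusted p = 4.3e-10). The exons of CALR share 270 bases with AC092069.1 on the opposite strand, a gene with no entry among the deposited counts. Whether strand was used in counting is not given, so part of the CALR reads may belong to that gene.

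PDIA4 (ERp72, ENSG00000155660, chr7:149003062-149028641, minus strand), a disulfide isomerase, stood between 593 and 619.6 TMM-scaled CPM in PC3 vehicle samples and between 338 and 347 after pentamidine. In DU145 cells it stood between 598 and 603 with vehicle and between 462 and 479 with pentamidine. Its log2 fold change was -0.82 (SE 0.05, adjusted p = 2.2e-10) in PC3 and -0.34 (SE 0.03, adjusted p = 1.3e-13) in DU145 cells, a difference of -0.48 (adjusted p = 6.1e-08). HSP90B1, CALR and PDIA4 thus fell together in both lines, and the fall of each was larger in PC3 cells.

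SDF2L1 (ENSG00000128228, chr22:21642261-21644298, plus strand), which works with ER J-domain proteins of the BiP cycle, showed the largest fall of the 10 members in both lines. It was at 76.4, 74.4 and 85.0 TMM-scaled CPM in PC3 vehicle samples and at 34.4, 32.9 and 33.8 after pentamidine. Vehicle-treated DU145 cells had 88.8, 91.4 and 94.5 and pentamidine-treated ones 66.4, 63.1 and 66.5. The treated samples were below the vehicle samples without overlap. The level after pentamidine was 0.431 of the vehicle level in PC3 cells (log2 fold change -1.22, SE 0.07, adjusted p = 2.9e-10) and 0.715 of it in DU145 cells (-0.48, SE 0.05, adjusted p = 4e-12). The difference was -0.73 (adjusted p = 1.3e-07).

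DNAJB9 (ERdj4, ENSG00000128590, chr7:108569568-108574850, plus strand), the J-domain protein that brings BiP to IRE1 and to misfolded clients, was the 1 member called in neither line. It was at 10.6, 11.0 and 10.6 TMM-scaled CPM in PC3 vehicle samples and at 9.93, 10.5 and 10.3 after pentamidine, from 144 to 169 reads per sample. In DU145 cells, with 78 to 103 reads, it was at 7.24, 6.94 and 7.09 with vehicle and at 6.44, 5.84 and 5.42 with pentamidine. The treated samples lay below the vehicle samples in both lines, by small gaps. The log2 fold change was -0.06 (95% interval -0.30 to 0.18, adjusted p = 0.70) in PC3 cells and -0.26 (95% interval -0.56 to 0.04, adjusted p = 0.18) in DU145 cells. The interval in PC3 cells leaves out a rise as large as that of HSPA5, while a fall of the size of HSPA5 in DU145 cells lies inside the interval there. Its exons share 183 bases with THAP5 and 99 bases with PNPLA8 on the opposite strand, and whether strand was used in counting is not given in the sources used here, so part of these reads may belong to those genes.

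HERPUD1 (ENSG00000051108, chr16:56932048-56944863, plus strand) encodes a ubiquitin-like membrane protein that organises the ER-associated degradation complex. It was at 34.9, 37.6 and 37.1 TMM-scaled CPM in PC3 vehicle samples and at 74.4, 70.0 and 68.0 after pentamidine. In DU145 cells it was already at 77.2, 80.3 and 78.4 with vehicle and reached 88.4, 89.4 and 83.9. Treated PC3 cells thus came near to, but stayed below, the vehicle level of DU145 cells. HERPUD1 rose 1.94-fold in PC3 cells (log2 fold change 0.96, SE 0.07, adjusted p = 4.4e-09) and 1.11-fold in DU145 cells (0.15, SE 0.05, adjusted p = 0.0071). The DU145 call was lost without the second treated DU145 sample (0.13, adjusted p = 0.063). The difference between the lines was 0.80 (adjusted p = 1e-08).

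XBP1 (ENSG00000100219, chr22:28794555-28800597, minus strand), the transcription factor whose mRNA IRE1 splices, had the largest rise of the members in PC3 cells. PC3 vehicle samples were at 157, 128 and 137 TMM-scaled CPM, and treated samples at 369.7, 385 and 372. DU145 vehicle samples were at 84.9, 103 and 97.9, and treated samples at 108, 113 and 108. The groups were far apart in PC3 cells and close to each other, without overlap, in DU145 cells. XBP1 rose 2.68-fold in PC3 cells (log2 fold change 1.42, SE 0.06, adjusted p = 6.5e-12) and 1.15-fold in DU145 cells (0.21, SE 0.05, adjusted p = 0.00059), a difference of 1.21 (adjusted p = 4e-11). The rise in DU145 cells fell to 0.12 (adjusted p = 0.037) without the first DU145 vehicle sample, below the 0.13 of HERPUD1 in the same fit. Counts per gene sum the spliced and unspliced forms, so these values give the amount of XBP1 mRNA and not its splicing.

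ATF6 (ENSG00000118217, chr1:161766294-161964070, plus strand), the sensor that becomes a transcription factor once cut in the Golgi, was at 68.4, 68.7 and 74.6 TMM-scaled CPM in PC3 vehicle samples and at 101.7, 100.8 and 105 after pentamidine. For DU145 cells the levels were 69.6, 69.0 and 70.2 with vehicle and 74.5, 72.3 and 74.7 with pentamidine. Its log2 fold change was 0.54 (SE 0.06, adjusted p = 8.5e-07) in PC3 cells. In DU145 cells it was 0.09 (95% interval -0.0070 to 0.19, adjusted p = 0.15). Scaling by library size alone gave 0.14 there (adjusted p = 0.020), which passes the threshold. The difference between the lines was 0.45 (adjusted p = 2.2e-05).

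ERN1 (IRE1-alpha, ENSG00000178607, chr17:64039142-64130819, minus strand), the kinase and endonuclease that splices XBP1, was at 15.9, 14.3 and 14.8 TMM-scaled CPM in PC3 vehicle samples and at 25.1, 25.2 and 26.6 after pentamidine. In DU145 cells it was at 17.1, 17.7 and 16.0 with vehicle and at 15.4, 17.6 and 16.2 with pentamidine. This was the 1 member and line in which the groups overlapped. The rise in PC3 cells was 1.71-fold (log2 fold change 0.78, SE 0.09, adjusted p = 1.8e-06). In DU145 cells the log2 fold change was -0.04 (95% interval -0.23 to 0.15, adjusted p = 0.77), and under scaling by library size alone it was 0.0073. The difference between the lines was 0.82 (adjusted p = 1.6e-05).

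**Figure D2:**
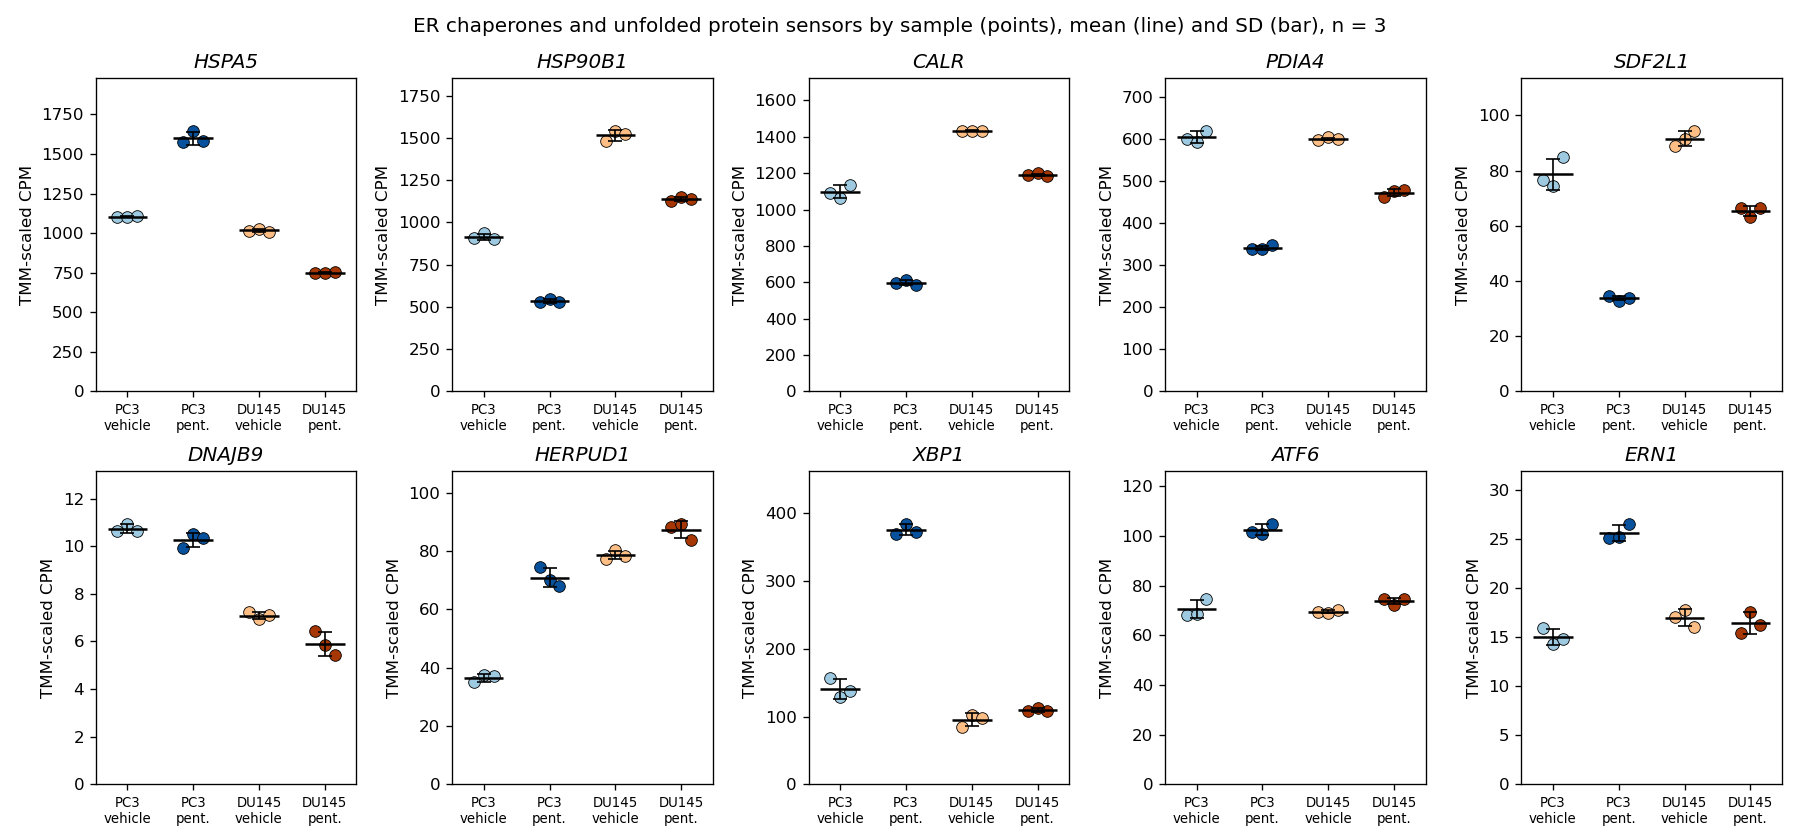
TMM-scaled CPM of each member (vertical axes, 1 panel per gene, each from zero) in the 12 samples by group, with the mean as a line and the SD as a bar, n = 3. Treated PC3 samples of HSPA5 lie at 1573 to 1648 above all other samples, while treated DU145 samples lie at 747 to 752 below them.

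The response to pentamidine differed between the lines for 9 of the 10 members, all but DNAJB9 (difference 0.20, adjusted p = 0.47). The fold change was higher in PC3 than in DU145 cells for 5 members, HSPA5, HERPUD1, XBP1, ATF6 and ERN1, and lower for 4, HSP90B1, CALR, PDIA4 and SDF2L1. Over 15226 genes in the fit of all 12 samples, 10.2% responded higher and 10.3% lower in PC3 cells. The lines also differed with vehicle, with 3 members higher in PC3 than in DU145 vehicle samples and 4 lower, where 33.2% of genes were higher and 33.2% lower. DNAJB9 (log2 difference 0.60, adjusted p = 7e-05), XBP1 (0.56, adjusted p = 1.2e-08) and HSPA5 (0.12, adjusted p = 0.0032) were higher in PC3 vehicle samples. HERPUD1 (-1.11, adjusted p = 1.4e-15), HSP90B1 (-0.73, adjusted p = 3e-16), CALR (-0.38, adjusted p = 2.1e-10) and SDF2L1 (-0.22, adjusted p = 0.00080) were lower. PDIA4 (0.0099, 95% interval -0.06 to 0.08), ATF6 (0.02, -0.09 to 0.12) and ERN1 (-0.18, -0.36 to 0.01) were not called. The lines were not labelled by batch, so cell line and any batch cannot be told apart in this contrast.

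Divided by exon length (GENCODE release 29), the members spanned a wide range of levels. In PC3 vehicle samples CALR was highest at 404 ± 13.3 TMM-scaled CPM per kilobase (SD, n = 3), followed by HSPA5 (283 ± 1.04), HSP90B1 (195 ± 3.64), PDIA4 (184 ± 4.17), SDF2L1 (71.5 ± 5.10), XBP1 (46.5 ± 4.85), ATF6 (8.95 ± 0.445), HERPUD1 (7.09 ± 0.274), DNAJB9 (3.79 ± 0.0647) and ERN1 (1.38 ± 0.0728). No neighbours in that order overlapped between samples. After pentamidine HSPA5 came first in PC3 cells at 409.7 ± 10.5, ahead of CALR at 220 ± 4.40, and XBP1 at 124 ± 2.68 had passed HSP90B1 (114 ± 2.29) and PDIA4 (104 ± 1.52). HERPUD1 (13.7 ± 0.637) and ATF6 (13.0 ± 0.282) overlapped there, and SDF2L1 was at 30.7 ± 0.694. In DU145 cells the order was CALR, HSP90B1, HSPA5, PDIA4, SDF2L1, XBP1, HERPUD1, ATF6, DNAJB9 and ERN1, both with vehicle (528 ± 0.798, 323 ± 6.79, 260.3 ± 2.36, 183 ± 0.877, 83.3 ± 2.57, 31.5 ± 3.09, 15.3 ± 0.297, 8.82 ± 0.0805, 2.50 ± 0.0524 and 1.56 ± 0.0784 TMM-scaled CPM per kilobase) and after pentamidine, where CALR was at 439 ± 2.34 and HSPA5 at 192 ± 0.654.

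Ratios of counts within a sample, which no scaling of libraries can change, give the size of this rearrangement. Each pair set a member that rose in PC3 cells over one that fell there. The rise of the ratios in PC3 cells thus follows from the choice of pairs and adds no support to the fold changes above. HSPA5 to HSP90B1 was 1.21 ± 0.0264 (SD, n = 3) in PC3 vehicle samples and 2.99 ± 0.0167 after pentamidine, and in DU145 cells it was 0.671 ± 0.0128 and 0.659 ± 0.00524. HSPA5 to CALR went from 1.01 ± 0.0292 to 2.68 ± 0.0320 in PC3 and from 0.710 ± 0.00739 to 0.629 ± 0.00417 in DU145 cells. HSPA5 to PDIA4 went from 1.83 ± 0.0345 to 4.69 ± 0.155 in PC3 and from 1.70 ± 0.0107 to 1.59 ± 0.0252 in DU145 cells. The BiP message thus gained on the 3 other luminal proteins between 2.48-fold and 2.66-fold in PC3 cells. In DU145 cells these ratios changed 0.886-fold (CALR), 0.937-fold (PDIA4) and 0.981-fold (HSP90B1), so HSPA5 fell somewhat more there than CALR and PDIA4. XBP1 to SDF2L1, a regulator against a folding helper, rose from 1.80 ± 0.228 to 11.1 ± 0.493 in PC3 and from 1.04 ± 0.0859 to 1.68 ± 0.0907 in DU145 cells. HERPUD1 to SDF2L1, the carriers of ERSE-II, rose from 0.466 ± 0.0352 to 2.101 ± 0.0809 in PC3 and from 0.859 ± 0.0254 to 1.34 ± 0.0772 in DU145 cells. The samples of the 2 groups overlapped for HSPA5 to HSP90B1 in DU145 cells alone, and the 9 other ratios and lines did not overlap. The exact two-sided permutation test gave p = 0.2 for that 1 case and p = 0.1 for each of the 9 others of the 10 tests (0.2 and 0.111 after Benjamini-Hochberg adjustment), and with 3 against 3 samples 0.1 is the smallest p it can give.

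**Figure D3:**
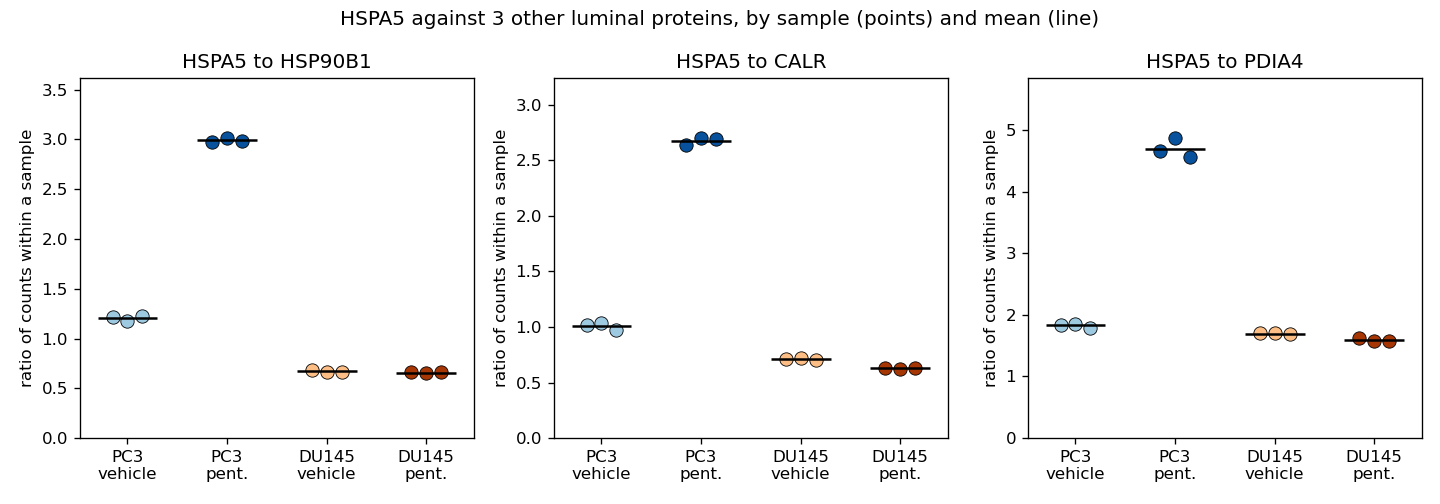
Ratio of HSPA5 counts to those of HSP90B1, CALR and PDIA4 within each sample (vertical axes, from zero), with 3 samples per group as points and the mean as a line. In treated PC3 cells the ratios lie near 2.99, 2.68 and 4.69, above all other groups.

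HSPA5, HSP90B1, CALR and PDIA4 together took 0.376% ± 0.00232 of all counts in PC3 vehicle samples and 0.308% ± 0.00505 after pentamidine (SD, n = 3), and 0.444% ± 0.00394 and 0.359% ± 0.00344 in DU145 cells. Without HSPA5 the share fell from 0.265% ± 0.00234 to 0.148% ± 0.00152 in PC3 and from 0.345% ± 0.00348 to 0.283% ± 0.00301 in DU145 cells. The summed chaperone message was thus lower after treatment in both lines although HSPA5 rose in one of them, and the groups did not overlap.

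By promoter sequence the members did not fall into one direction. Of the 4 members with ERSE in the window printed above, HSPA5 and XBP1 rose and HSP90B1 and CALR fell in PC3 cells. The split was uneven in DU145 cells, where HSPA5 (-0.44), HSP90B1 (-0.41) and CALR (-0.26) fell and XBP1 alone rose (0.21). The elements of HSPA5 and XBP1 lay at -66 to -48 and at -52 to -34 from the start. Those of HSP90B1 lay at -194 to -176 and, on the reverse strand, at -89 to -71, and that of CALR at -225 to -207 on the reverse strand. Of the 2 members with ERSE-II, HERPUD1 (-117 to -107) rose and SDF2L1 (-188 to -178, reverse strand) fell in both lines, by more in PC3 cells. So few members with a match cannot tell position or strand of the element apart from any other difference between these genes.

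The genes whose pattern over the 12 samples was most like that of HSPA5 were found by the root mean square difference of centred log2 CPM among 9374 genes with a mean of at least 10 CPM. The 5 nearest were DRAM1 (0.11), a p53 target of autophagy, TNFAIP1 (0.12), ZNF277 (0.12), PEA15 (0.12) and UAP1 (0.13), an enzyme of UDP-N-acetylglucosamine synthesis. Each had a positive log2 fold change in PC3 cells (0.32 to 0.87) and a negative one in DU145 cells (-0.16 to -0.41). As they were picked for likeness to HSPA5 in these same samples, the shared signs follow from the choice. None of the other members was near: ERN1 ranked 635 and ATF6 751, XBP1 5846, and PDIA4, HERPUD1, CALR, SDF2L1 and HSP90B1 between 7773 and 8832. DNAJB9, under a mean of 10 CPM, was not compared.

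Other ER chaperones and co-chaperones, 27 genes of which 25 were tested in PC3 cells and 23 in DU145 cells, held calls in both directions. In PC3 cells 6 were called higher and 8 lower (median log2 fold change -0.10), beside 21.7% and 21.7% of all genes. In DU145 cells 4 were higher and 9 lower (-0.03), beside 17.2% and 16.8% of all genes. HYOU1 (GRP170), the exchange factor that recharges BiP, was the 1 other gene of this list called in opposite directions, at 0.32 (adjusted p = 2.9e-05) in PC3 cells and -0.22 (adjusted p = 1.3e-07) in DU145 cells (interaction 0.55, adjusted p = 3e-08). SERPINH1 (HSP47), the collagen chaperone, rose in both lines (1.02, adjusted p = 1.2e-10, and 0.43, adjusted p = 6.5e-14), as did HSPA13 (0.65 and 0.35, adjusted p = 8.2e-07 and 3.3e-08). MANF, a secreted BiP partner and classical target of the unfolded protein response, fell in both (-0.97, adjusted p = 3.4e-07, and -0.40, adjusted p = 3.2e-13). The BiP co-chaperones DNAJC3 (p58IPK; -0.23 and -0.44, adjusted p = 0.024 and 1.6e-08) and DNAJB11 (ERdj3; -0.31 and -0.41, adjusted p = 0.00095 and 2.4e-10) fell in both lines, as did the prolyl isomerase PPIB (-0.33 and -0.41, adjusted p = 0.00082 and 8.2e-11). CRELD2 fell in PC3 cells (-0.79, adjusted p = 3.2e-07) and stood at -0.03 in DU145 cells (adjusted p = 0.71; interaction adjusted p = 3.2e-07). Besides SERPINH1, CDNF alone passed the stricter threshold in PC3 cells, with 3 or 4 reads per vehicle sample and between 12 and 21 per treated sample. It passed the filter on low counts only through the treated group, which favours a call, and it was named after its values were seen.

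Among other disulfide isomerases and oxidases, 19 tested of 24, 3 were called higher and 8 lower in PC3 cells (median -0.25). In DU145 cells 2 were higher and 8 lower (median -0.11). The shares of all genes were 21.7% higher and 21.7% lower in PC3 cells, and 17.2% and 16.8% in DU145 cells. PDIA6, which tunes IRE1 and PERK signalling, fell by 0.40 and 0.22 on the log2 scale (adjusted p = 8.5e-06 and 1.6e-07). PDIA3 (ERp57), the isomerase that works with calreticulin, fell by 0.44 and 0.18 (adjusted p = 7.1e-07 and 7.9e-06), and ERO1A, the oxidase that reoxidises isomerases, by 0.42 and 0.11 (adjusted p = 3.5e-05 and 0.037). Its relative ERO1B stood at -0.25 in PC3 cells (adjusted p = 0.17) and fell by 0.47 in DU145 cells (adjusted p = 0.00048). TXNDC12 (0.54 and 0.35, adjusted p = 2.5e-06 and 1.5e-09) and ERP29 (0.39 and 0.30, adjusted p = 2.6e-05 and 1.6e-09) rose in both lines.

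Of 30 genes of ER-associated degradation, all tested, 5 were higher and 6 lower in PC3 cells (median -0.03), and 2 higher and 13 lower in DU145 cells (median -0.10). The PC3 counts lie near the shares of all genes called, 21.7% higher and 21.7% lower. For DU145 cells those shares were 17.2% and 16.8%. HERPUD2, the paralogue of HERPUD1, rose in PC3 cells (0.49, adjusted p = 0.00016) and stood at 0.18 in DU145 cells (adjusted p = 0.057). EDEM3, a mannosidase that marks glycoproteins for disposal (-0.32 and -0.22, adjusted p = 0.0032 and 0.0010), and VCP (-0.25 and -0.16, adjusted p = 0.00053 and 1.5e-05) and NPLOC4 (-0.30 and -0.21, adjusted p = 8.5e-05 and 2.6e-06), parts of the machine that pulls clients out of the membrane, fell in both lines. DERL3, with 4 to 23 reads per PC3 sample, fell in PC3 cells (-1.21, SE 0.46, adjusted p = 0.043) and was not called in DU145 cells (-0.21, adjusted p = 0.49). SELENOK was at -0.21 in PC3 cells (adjusted p = 0.13) and fell in DU145 cells (-0.29, adjusted p = 0.0015). HERPUD1 therefore rose in PC3 cells among degradation genes whose median was near that of all genes.

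The list of the translocon and signal peptidase, which bring new proteins into the ER, held 24 genes. In PC3 cells 1 was higher and 10 were lower (median -0.16), beside 21.7% and 21.7% of all genes. In DU145 cells 1 was higher and 11 were lower (median -0.10), beside 17.2% and 16.8% of all genes. The signal peptidase subunits SPCS3 (-0.77 and -0.32, adjusted p = 1.1e-08 and 2.1e-09) and SPCS2 (-0.55 and -0.18, adjusted p = 4.1e-05 and 0.0069) fell in both lines, more so in PC3 cells (interaction adjusted p = 1.7e-05 and 0.014). SSR1 (-0.29 and -0.13, adjusted p = 0.00026 and 0.0078), SSR3 (-0.18 and -0.26, adjusted p = 0.022 and 1.8e-07) and SEC62 (-0.22 and -0.18, adjusted p = 0.0038 and 0.00051) also fell in both. SRPRB stood at -0.15 in PC3 cells (adjusted p = 0.064) and fell in DU145 cells (-0.28, adjusted p = 6.5e-05).

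Beside ERN1 and ATF6, 16 of 18 genes for other sensors, their proteases and partners were tested. In PC3 cells 4 were higher and 4 lower (median -0.04), beside 21.7% and 21.7% of all genes. In DU145 cells 4 were higher and 5 lower (median 0.04), beside 17.2% and 16.8% of all genes. Neither count is read as a response of the list. EIF2AK3 (PERK), the third sensor, fell in PC3 cells (-0.46, SE 0.13, adjusted p = 0.0069) and stood at -0.22 in DU145 cells (SE 0.12, adjusted p = 0.16), whereas ERN1 and ATF6 rose in PC3 cells and were not called in DU145 cells. Its vehicle samples in PC3 cells were at 18.2, 15.2 and 15.9 TMM-scaled CPM and its treated samples at 13.4, 9.68 and 12.6. ATF6B, the paralogue of ATF6, rose in both lines (0.26 and 0.30, adjusted p = 0.00089 and 2.1e-06), and the site-2 protease MBTPS2 that releases ATF6 rose in PC3 cells (0.33, adjusted p = 0.0071) and was at 0.12 in DU145 cells (adjusted p = 0.20). TRAF2, an adaptor of IRE1, fell in both (-0.34 and -0.23, adjusted p = 0.0028 and 0.0030), as did CREB3L2 (-0.23 and -0.22, adjusted p = 0.012 and 0.011). MAP3K5, the kinase downstream of IRE1 and TRAF2, was at -0.18 in PC3 cells (adjusted p = 0.12) and fell in DU145 cells (-0.25, adjusted p = 0.011).

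Unlike the medians of these lists, those of the genes of the ATF4 and CHOP branch were far above that of all genes in both lines. In PC3 cells 38 of 39 were called higher and 1 lower, 30 of them past a log2 fold change of 1, with a median of 1.63. In DU145 cells 34 of 38 tested were higher and 1 lower, 18 of them past 1, with a median of 0.98. Of all genes, 21.7% were higher, 21.7% lower and 3.44% higher past 1 in PC3 cells. The shares in DU145 cells were 17.2%, 16.8% and 1.37%. The list was drawn up with earlier results of these data known, so its direction is a description. ATF4 was at 388, 414 and 432 TMM-scaled CPM in PC3 vehicle samples and at 896, 930.1 and 862 after pentamidine, and it went from 368, 386 and 363 to 745, 737 and 703 in DU145 cells. It rose in both (log2 fold change 1.13, SE 0.05, adjusted p = 2.3e-11, and 0.97, SE 0.03, adjusted p = 1.1e-31), and the difference of 0.16 (95% interval 0.03 to 0.28 before adjustment, adjusted p = 0.072) missed the threshold. DDIT3 (CHOP) rose by 2.74 (SE 0.15, adjusted p = 2.4e-10) in PC3 and by 1.27 (SE 0.13, adjusted p = 1.6e-11) in DU145 cells.

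The 6 genes of the branch with the largest mean change were DDIT4 (5.30 and 2.05), JDP2 (4.62 and 2.27), CHAC1 (3.91 and 2.89), SESN2 (4.16 and 2.33), ATF3 (3.79 and 2.41) and ALDH1L2 (3.49 and 2.67), all called in both lines at adjusted p between 2e-18 and 1.4e-10 in PC3 cells and between 3.9e-36 and 2.2e-10 in DU145 cells. Called lower in 1 line, and named after their values were seen, were ATF5, lower in PC3 cells (-0.20, adjusted p = 0.045) and higher in DU145 cells (0.34, adjusted p = 9.4e-06), and the death receptor gene TNFRSF10B, higher in PC3 cells (0.64, adjusted p = 3.2e-08) and lower in DU145 cells (-0.44, adjusted p = 1.4e-14). Another 3, also named afterwards, rose in PC3 cells and were not called in DU145 cells. They were PPP1R15A (GADD34), which reverses eIF2-alpha phosphorylation (1.59 and 0.06, adjusted p = 2.5e-11 and 0.44, interaction adjusted p = 2.6e-12), CTH (0.99 and -0.04, adjusted p = 3e-07 and 0.89) and VLDLR (3.84 and 0.86, adjusted p = 4.5e-10 and 0.16). NUPR1 was not tested in DU145 cells. The response of the branch was higher in PC3 than in DU145 cells for 30 of 39 genes and lower for 3. Over all 15226 genes in that fit, 10.2% responded higher and 10.3% lower in PC3 cells.

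**Figure D4:**
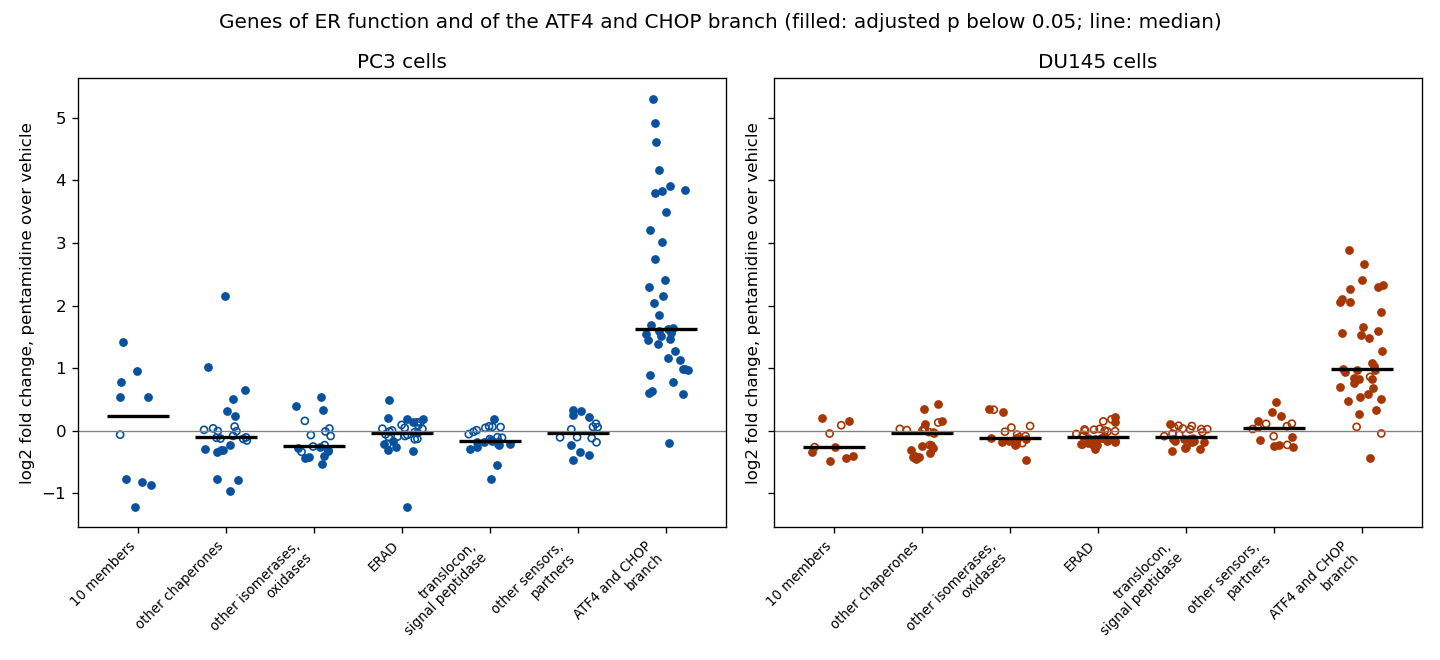
Log2 fold change of each gene tested (vertical axis, pentamidine over vehicle) by list in PC3 and DU145 cells, with filled points for an adjusted p below 0.05 and a line for the list's median. The ATF4 and CHOP branch has medians of 1.63 and 0.98, while in PC3 cells the members have a median of 0.24 and the 5 other ER lists have medians between -0.25 and -0.03.

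Of 6 mRNAs known as substrates of IRE1-dependent decay, 4 were tested in each line. BLOC1S1, the best known of them, had 7 to 24 reads per PC3 sample and stood at 0.39 there (SE 0.37, adjusted p = 0.42). It rose in DU145 cells (0.96, SE 0.30, adjusted p = 0.011), with 13 to 19 reads per vehicle sample and 26 to 38 per treated sample. HGSNAT rose in both lines (0.48 and 0.29, adjusted p = 0.00071 and 0.0042). COL6A1 rose in DU145 cells (0.45, adjusted p = 0.00026) and stood at -0.25 in PC3 cells (adjusted p = 0.67), with 7 to 12 reads per PC3 sample. SCARA3 fell in PC3 cells (-0.26, adjusted p = 0.040) and stood at -0.02 in DU145 cells (adjusted p = 0.93). In PC3 cells, where ERN1 rose, 1 of the 4 was therefore higher and 1 lower, beside 21.7% and 21.7% of all genes. The few reads of BLOC1S1 and COL6A1 left little room to call a change of either there.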

How the data were processed

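RNA from 12 samples was enriched with Oligo(dT) beads and sequenced. Per the submitters' processing notes, reads were aligned with HISAT2 2.1.0 to GRCh38 and compared with DESeq 1.18.1. The counter, the annotation and the use of strand are not given in the sources used here. The authors deposited whole-number read counts per gene, not normalized. They also deposited a table named for FPKM whose values are CPM, and 100% of its 384924 values gave whole reads (within 0.01) equal to the counts, so the count test on the recovered reads gave the same 6010 and 4860 called genes. The authors' own comparison tables hold log2 fold changes and p-values and were not used. Samples were grouped by their titles, and none was left out.

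The 33595 entries were reduced to 32077 genes by dropping repeated names with equal counts, and 24 names turned into dates were left as they were. Counts were tested with edgeR 4.0.16 (R 4.3.3; quasi-likelihood test, TMM, filterByExpr at a minimum count of 10, Benjamini-Hochberg adjustment), per line on 6 samples, and for the interaction and the vehicle levels in 1 fit of 12 samples. The alternatives were DESeq2 1.42.0, RLE, library size alone, TMM without mitochondria-encoded genes, limma 3.58.1 on log2(CPM + 1) and log2(CPM + 0.1), no filter, a minimum of 10 counts per sample, a block for the replicate number, 1 fit for all samples, an adjusted p below 0.01, the study's rule of an absolute log2 fold change above 1, each sample left out, and, added after seeing the data, the recovered reads. Total counts of 13514195 to 15131436 set the precision, and intervals cover the spread between samples only. The test was tried on simulated data with known changes before use.

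All members are named. Per list, up to 6 genes are named, ranked by the absolute mean of both lines' log2 fold changes among genes called in at least 1 of them, and ATF4, DDIT3, EIF2AK3, HYOU1, DNAJC3 and PDIA6 are named in any case. The members and lists were chosen with earlier results of these data known. Older names in the table were matched for AARS1, WARS1, SARS1 and MARCHF6, and a few listed genes are not reported here. Motifs were searched as exact letters on both strands of RefSeq promoters.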

Additional observations from a re-analysis of the deposited data

Results flagged for a closer look

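The response to pentamidine differed between PC3 and DU145 cells, by edgeR's interaction test at an adjusted p below 0.05, for 9 of the 10 members. Among all 15226 genes tested, 10.2% responded higher and 10.3% lower in PC3 cells. The log2 fold change in PC3 cells minus that in DU145 cells was 1.21 for XBP1, 0.98 for HSPA5, 0.82 for ERN1, 0.80 for HERPUD1 and 0.45 for ATF6. It was -0.73 for SDF2L1, -0.61 for CALR, -0.48 for PDIA4 and -0.36 for HSP90B1. HSPA5 was the 1 member called in opposite directions in the lines. These values kept their sign and their call in each of the 16 other settings run for the interaction.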

How the results depend on the processing

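Under the study's rule of an absolute log2 fold change above 1, 2 members were called in PC3 cells and 0 in DU145 cells, against 9 and 7 by the adjusted p alone. Values that changed sign were never called. They were ERN1 in DU145 cells (0.0073 with library size alone, 0.0043 and 0.0044 with limma), and, between the vehicle samples, PDIA4 (-0.0099 with RLE, -0.010 with DESeq2, and from -0.0074 to 0.0247 as 1 PC3 vehicle sample was left out) and ATF6 (-0.0007, -0.0008, and from -0.0208 to 0.0426). HERPUD1 lost its DU145 call without the second treated DU145 sample (0.13, adjusted p = 0.063). ATF6 was called in DU145 cells with library size alone (0.14, adjusted p = 0.020) and with limma (0.14, adjusted p = 0.019 and 0.021). The limma fits, here and for ERN1, were also scaled by library size without TMM, so they are no separate check of the scaling. The cause of these changes was not tested. In DU145 cells library size alone moved the share of called genes that were higher from 50.6% to 66.6%, and in the interaction from 49.7% to 33.2%, and 3698 genes were called by DESeq2 in place of 4860. Of the other values of the members, 673 kept their direction and call. The replicate numbers did not pair samples (correlations of deviations for the same number were -0.12 to 0.04 for PC3 and -0.0082 to 0.0004 for DU145). The replicate block gave 5599 and 4794 called genes in place of 6010 and 4860 and changed no call of a member. DNAJB9, at 78 to 169 reads per sample, is the member that depth limits most.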

Other observations

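The genes of the whole table that carry the promoter elements of the members were counted after the members' values had been seen. ERSE was in the promoters of 25 genes, of which 16 were tested in PC3 cells (3 called higher and 7 lower, median log2 fold change -0.20) and 15 in DU145 cells (2 higher and 8 lower, median -0.22). Without the 4 members, 1 of 12 was higher and 5 were lower in PC3 cells, and 1 of 11 was higher and 5 were lower in DU145 cells. ERSE-II was in 19 genes, of which 13 were tested in PC3 cells (2 higher and 8 lower, median -0.30) and 14 in DU145 cells (1 higher and 6 lower, median -0.18). The motif TGATGNAA was in 1217 genes, of which 257 were tested in PC3 cells (34.6% higher and 18.3% lower) and 254 in DU145 cells (24.8% higher and 18.5% lower). These shares stand beside 21.7% higher and 21.7% lower of all genes tested in PC3 cells, and 17.2% and 16.8% in DU145 cells, and no test was made of them.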
